A study of Mus musculus with 18 samples.

Results

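The genes described here are 10 members of the BCL2 family, taken by name from the 37991 genes counted in each of 18 RNA-seq libraries of mouse CD4+ T cells. They are Bcl2, Bcl2l1 (BCL-XL), Mcl1, Bax, Bak1, Bcl2l11 (BIM), Bbc3 (PUMA), Pmaip1 (NOXA), Bid and Bad. The rule that names them uses no measured value, though earlier results of these data were known. All 10 passed the filter on low counts that left 17240 genes to be tested. All cells came from the spleens of male and female Tg4-H2u mice aged 6 to 12 weeks, a strain whose transgenic TCR recognizes a peptide of myelin basic protein. Tolerized mice (T) had received repeated subcutaneous doses of the 4Y variant of this peptide, 7 in all and rising in size, and the control mice (N), whose T cells were mostly naive, had received PBS in the same way. Cells were harvested 2 h after a final injection of PBS (N0 and T0) or of 80 µg of 4Y peptide antigen (NAg and TAg), or were treated in culture for 2 h with 20 ng/ml PMA and 2 µM of the calcium ionophore A23187 (NPI and TPI). Each of the 6 groups had 3 libraries, described as biological replicates.

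BCL2 family proteins decide whether the outer membrane of the mitochondrion is opened, the step that releases cytochrome c and commits a cell to apoptosis. BAX and BAK form the pores, BCL2, BCL-XL and MCL1 hold them in check, and the BH3-only proteins BIM, PUMA, NOXA, BID and BAD bind the guardians or activate the pore formers. In T cells, BCL2 and MCL1 keep resting cells alive, BCL-XL is made on activation with costimulation, and BIM removes self-reactive and spent cells.

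Levels are given as normalized counts, the reads of a gene scaled by TMM normalization to a library of average size. Levels of different genes are set side by side only per kb of exon. Differences are log2 fold changes with their standard errors (SE), and p-values come from the quasi-likelihood F test of edgeR, adjusted by the Benjamini-Hochberg procedure over all genes tested. A gene was called at an adjusted p under 0.05. A stricter limit also asked for a 2-fold change and a mean normalized count above 50 in the higher group. For a difference between responses, the highest mean of all groups in it was used. T0:N0 stands for T0 relative to N0, and likewise for the other groups.

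The total count per library ranged from 10758571 to 24119489 and was highest after PMA and ionophore. The 6 defining CD4 T cell genes were detected in every group. Their summed levels (CPM, reads scaled to the library size after TMM normalization) were 1630 to 1718 in N0, 1303 to 1583 in T0, 716 to 765 in NAg, 983 to 1111 in TAg, 2895 to 3233 in NPI and 2761 to 3096 in TPI. The high sums in NPI and TPI include Cd28, at 311 to 314 CPM in N0, 265 to 354 in T0, 1820 to 2027 in NPI and 1717 to 2050 in TPI. Of the 6 genes, 2 were called higher and 4 lower in NPI:N0, and 2 higher and 3 lower in TPI:T0. All 6 were called lower in NAg:N0 and 4 of 6 in TAg:T0. In TAg:NAg 5 were called higher and 1 lower, and 5 were higher in the difference between the responses to antigen. The part of these markers in the antigen results was not tested. All 14 neutrophil markers were called higher in T0:N0, with a summed level of 166 to 276 CPM in T0 against 6.61 to 15.9 CPM in N0, 181 to 319 CPM in TAg against 12.5 to 30.5 CPM in NAg, and 37.5 to 62.7 CPM in TPI against 6.24 to 14.7 CPM in NPI. None of these 14 was at 0 in all libraries of T0, TAg or TPI. Of 12 erythroid markers, 3 were called higher in T0:N0, with a summed level of 32.9 to 219 CPM in T0 and 8.02 to 23.9 CPM in N0. In this bulk RNA, a change in the share of cells of a type and a change in RNA per cell cannot be told apart. Y-linked reads were at most 18 in every N0 and NAg library, 1 T0 library and 2 TAg libraries, and at least 5111 in the others, which include every NPI and TPI library. Sex and PMA and ionophore cannot be told apart in naive cells, and neither can culture and PMA and ionophore in either state, since the resting cells were not cultured.

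The windows before the starts of Bcl2l11 and Bbc3 are shown because, among the BH3-only genes, their responses to a stimulus differed most between cell states. They are the 250 bases before a RefSeq start (GRCm38.p6), on the plus strand, at chr2:128125788-128126037 for Bcl2l11 and chr7:16310011-16310260 for Bbc3. RefSeq lists 2 such windows for Bcl2l11 and 3 for Bbc3, and those shown were chosen because they hold both sets of letters. Capitals mark the FOXO letters TGTTTAC and the EGR letters GCGNGGGCG, searched on both strands.
Bcl2l11: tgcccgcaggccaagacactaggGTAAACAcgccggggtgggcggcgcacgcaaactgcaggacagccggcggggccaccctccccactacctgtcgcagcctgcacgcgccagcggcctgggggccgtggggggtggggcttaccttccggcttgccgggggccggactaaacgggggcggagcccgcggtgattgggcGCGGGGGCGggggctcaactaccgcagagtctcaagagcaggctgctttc
Bbc3: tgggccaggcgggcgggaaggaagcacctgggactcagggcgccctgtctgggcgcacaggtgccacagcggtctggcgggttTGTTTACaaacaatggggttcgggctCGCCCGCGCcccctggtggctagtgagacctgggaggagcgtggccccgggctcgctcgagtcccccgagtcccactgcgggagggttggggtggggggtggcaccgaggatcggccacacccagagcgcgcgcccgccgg
Each of these windows held 1 match to both sets of letters. The other Bcl2l11 window held neither set, and of the other Bbc3 windows 1 held the EGR letters and none the FOXO letters. In the Bcl2l11 window the EGR letters ran into a GC box (GGGCGG). No window of the other genes searched held the FOXO or the EGR letters. Over 32851 RefSeq windows of the same length, 3.17% held the FOXO letters and 4.70% the EGR letters. These shares are no test of the windows shown, which were chosen for holding the letters. The AP-1 letters TGANTCA (6.75% of all windows), the CRE letters TGACGTCA (1.55%), the NFAT letters TGGAAA (18.6%) and the STAT letters TTCNNNGAA (7.02%) were found in no window of the 9 genes searched. A match describes the letters and shows no binding.

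At rest, with all libraries in the fit, a pore former and 3 BH3-only genes were higher in tolerized than in naive cells. No guardian was called in that fit. In T0:N0, 4 of the 10 genes were called, all higher, against 20.4% of all genes tested (8.42% higher and 12% lower). With all libraries, no gene was called lower with edgeR or with DESeq2. At an unadjusted p under 0.05 only Mcl1 was lower with edgeR (−0.17, SE 0.07, edgeR adjusted p = 0.111) and 1 gene with DESeq2. Over fits that left out a library, Bcl2l11 was called lower without N0 replicate 1 (edgeR adjusted p = 0.0111). Mcl1 was called lower without T0 replicate 3 (edgeR adjusted p = 0.0116). The median over the 10 genes was 0.04 on the log2 scale and −0.08 over all genes. Mcl1 (chromosome 3, 95462643 to 95467099, plus strand; all gene positions are in NCBIM37) was highest per kb in both groups, at 1779 ± 112 (SD, n = 3) normalized counts per kb in N0 and 1582 ± 166 in T0. Bcl2 (chromosome 1, 108434755 to 108610851, minus strand) followed at 438 ± 91.3 and 448 ± 91.5, then Bax at 269.8 ± 24.6 and 274.5 ± 25.9. Bcl2l11 was the fourth in both groups. In N0 the libraries of each of the first 7 genes stayed above those of the next gene, whereas those of Bad, Bbc3 and Pmaip1 at the bottom overlapped in turn. In T0 the ranges of Bcl2l11 and Bak1 overlapped, as did those of Bid, Bcl2l1 and Pmaip1 in turn.

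**Figure D1:**
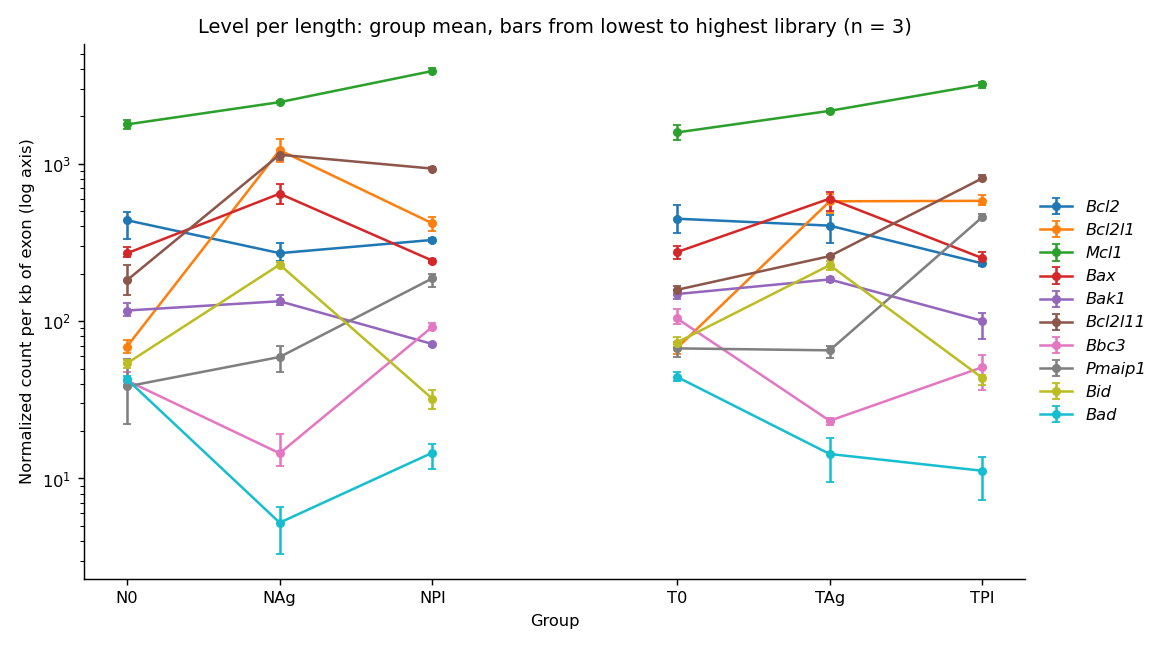
Mean normalized count per kb of exon (log axis) of the 10 genes in the 6 groups, with bars from the lowest to the highest of 3 libraries. Mcl1 is highest in every group, and Bcl2, second at rest, is passed by Bcl2l1, Bcl2l11 and Bax in NAg.

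Bbc3 encodes PUMA, a BH3-only protein that binds every guardian and is a classical target of p53. Bbc3 (chromosome 7, 16894965 to 16903554, plus strand) had 76.3, 80.3 and 96.0 normalized counts in the N0 libraries and 193, 195 and 240 in the T0 libraries. The groups were far apart, and the fitted difference was 1.31 (SE 0.17, edgeR adjusted p = 1.15e-05), or 2.48-fold. It was the only one of the 10 genes past the stricter limit, which 3.25% of all genes reached. The T0 library with few Y-linked reads, like all of N0, was the one with 240 normalized counts, and with a Y-linked score as a covariate the difference was 1.45 (edgeR adjusted p = 3.98e-05). With erythroid and neutrophil marker scores as covariates it was −0.12 (SE 0.73, edgeR adjusted p = 0.995), and no member was called in T0:N0, nor had any an unadjusted p under 0.05. The part of the neutrophil markers in the resting differences was not tested beyond this fit, whose standard errors were wide.

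Bid, which links death receptors to the mitochondrion once cut by caspase 8, had 180 to 200.1 normalized counts in N0 and 239 to 281 in T0 without overlap (0.44, SE 0.10, edgeR adjusted p = 0.00359). Bak1 had 261 to 312 normalized counts in N0 and 334 to 380 in T0 (0.35, SE 0.12, edgeR adjusted p = 0.0355). Pmaip1, which encodes NOXA, a partner of MCL1, had 58.5, 95.2 and 152 normalized counts in N0 and 156, 187 and 189 in T0 (0.80, SE 0.23, edgeR adjusted p = 0.0209). The N0 libraries of Pmaip1 spread more widely than its T0 libraries, and the groups did not touch. The call of Bak1 held in 1 of 6 fits that left out a library (lost without N0 replicate 2 or 3 or any T0 replicate), and that of Pmaip1 in 3 of 6 (lost without any 1 of N0 replicate 3, T0 replicate 1 and T0 replicate 2). With the Y-linked score as a covariate neither was called (Bak1 0.37, edgeR adjusted p = 0.0938; Pmaip1 0.68, edgeR adjusted p = 0.148), and Pmaip1 was not called with only N0 and T0 in the fit (edgeR adjusted p = 0.136). Bcl2l11 differed by −0.20 (SE 0.10, edgeR adjusted p = 0.195) and was not called with all libraries in the fit. For Bcl2, Bcl2l1, Bax and Bad the differences lay between −0.03 and 0.05 with SEs of 0.12 to 0.22.

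After antigen, 9 of the 10 genes changed in naive cells and 8 in tolerized cells, in a background where 65.5% and 59.8% of all genes were called. In NAg:N0, 6 were higher and 3 lower, against 32.1% and 33.4% of all genes, and 6 passed the stricter limit, against 30.3%. In TAg:T0, 6 were higher and 2 lower, against 29.9% and 29.8%, and 5 passed the stricter limit, against 23.4%. The guardian Bcl2l1 (chromosome 2, 152593052 to 152657464, minus strand) rose most, followed by BH3-only genes and Bax, while Bad and Bbc3 fell in both states. The median over the 10 genes was 0.54 in NAg:N0 and 0.38 in TAg:T0, against 0.00 and −0.05 over all genes.

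**Figure D2:**
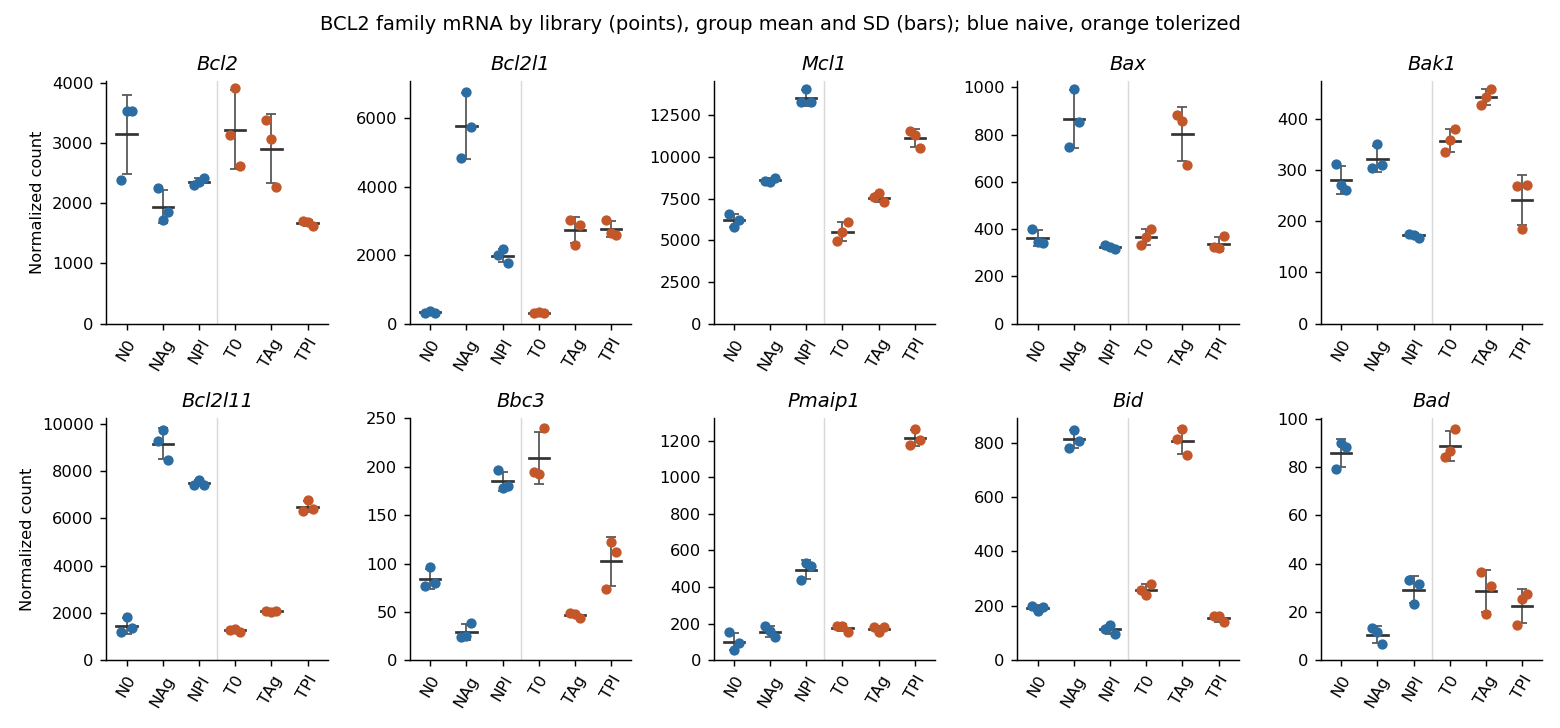
Normalized counts of each gene in the 18 libraries (points, blue for naive and orange for tolerized), with the group mean and SD as bars, on a separate linear axis from 0 for each gene. The 3 TAg libraries of Bcl2l11 lie between 2040 and 2100, below all NAg libraries at 8464 to 9759.

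Bcl2l1 had 298, 319 and 359 normalized counts in the N0 libraries and 4828, 5750 and 6763 in the NAg libraries. It had 294, 313 and 349 in T0 and 2308, 2871 and 3024 in TAg. Every stimulated library stood far above every resting one, and every TAg library stood below every NAg library. The rise was 4.15 (SE 0.14, edgeR adjusted p = 2.05e-15) in naive cells, or 17.8-fold, and 3.10 (SE 0.13, edgeR adjusted p = 1.75e-13) in tolerized cells, or 8.58-fold.

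Bcl2l11 (chromosome 2, 127951774 to 127988283, plus strand), the BH3-only gene whose product binds all guardians, had 1175, 1378 and 1824 normalized counts in N0 and 8464, 9290 and 9759 in NAg. In tolerized cells it had 1178, 1290 and 1342 in T0 and 2040, 2093 and 2100 in TAg. It rose in both states, and all TAg libraries lay above all resting and below all NAg libraries. The rise was 6.29-fold in naive cells (2.65, SE 0.11, edgeR adjusted p = 1.29e-15) and 1.64-fold in tolerized cells (0.71, SE 0.10, edgeR adjusted p = 3.49e-06). TAg lay 4.41-fold below NAg (−2.14, SE 0.11, edgeR adjusted p = 2.18e-12), the largest difference of the 10 genes between the antigen groups.

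Mcl1, which encodes a short-lived guardian, rose by 0.47 (SE 0.07) in NAg:N0 and 0.46 (SE 0.07) in TAg:T0. Bcl2, the guardian that carries the family name, had 2391, 3526 and 3531 normalized counts in N0 and 1722, 1861 and 2252 in NAg. It fell by 0.70 in naive cells (SE 0.18, edgeR adjusted p = 0.00382), a call lost with the marker scores (−0.42, SE 0.20, edgeR adjusted p = 0.089). In tolerized cells the difference was −0.15 (SE 0.18, edgeR adjusted p = 0.512), with overlapping libraries.

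Bax (chromosome 7, 52717065 to 52722268, minus strand), the pore former that moves from the cytosol to the mitochondrion, rose from 340 to 399 normalized counts in N0 to between 748 and 993 in NAg, and from 333 to 402 in T0 to between 673 and 882 in TAg. The rises were 1.26 (SE 0.11) and 1.13 (SE 0.11), and the difference between them was −0.13 (SE 0.16, edgeR adjusted p = 0.629). Bak1 (chromosome 17, 27156755 to 27165954, minus strand), the pore former resident at the mitochondrion, had a difference of 0.20 in naive cells (SE 0.12, edgeR adjusted p = 0.15) and rose in tolerized cells (0.31, SE 0.11, edgeR adjusted p = 0.0213). The tolerized call was lost in 3 of 6 fits that left out a library, those without T0 replicate 1, T0 replicate 2 or TAg replicate 3.

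Bid (chromosome 6, 120841948 to 120866871, minus strand) had 180 to 200.1 normalized counts in N0, 781 to 847 in NAg, 239 to 281 in T0 and 755 to 850.1 in TAg. Its resting levels differed while its levels after antigen overlapped (TAg:NAg −0.01, SE 0.09). Bad (chromosome 19, 7016351 to 7026388, plus strand), a BH3-only gene whose product is held inactive by growth factor signals, had 79.3 to 89.8 normalized counts in N0 and 6.60, 11.8 and 13.2 in NAg. Tolerized cells had 84.0 to 95.9 in T0 and 19.1, 30.7 and 36.3 in TAg. All TAg libraries were above all NAg libraries and below all resting ones. The fall was 8.13-fold in naive cells (−3.02, SE 0.29) and 3.07-fold in tolerized cells (−1.62, SE 0.25). Bbc3 fell to 23.97, 24.7 and 38.5 normalized counts in NAg (−1.52, SE 0.21) and to 44.1, 47.7 and 48.4 in TAg (−2.16, SE 0.19). Pmaip1 was called in naive cells (0.61, SE 0.23, edgeR adjusted p = 0.0309) although N0 and NAg libraries overlapped, and this call held in 2 of 6 fits that left out a library (lost without any 1 of N0 replicates 2 and 3 and NAg replicates 1 and 2) and was lost with the marker scores (edgeR adjusted p = 0.161). In tolerized cells its difference was −0.04 (SE 0.22).

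The responses to antigen of both states were compared directly as a difference of log2 fold changes. It was called for 4 of the 10 genes (1 higher and 3 lower in tolerized cells), against 21.7% of all genes (14.6% higher and 7.09% lower). The stricter limit was passed by 3, against 5.27% of all genes. Bcl2l11 showed the largest, with a tolerized response 1.94 lower on the log2 scale (SE 0.15, edgeR adjusted p = 6.27e-09), followed by Bad, whose fall was 1.41 smaller (SE 0.39, edgeR adjusted p = 0.0112), and by Bcl2l1, whose rise was 1.05 smaller (difference −1.05, SE 0.18, edgeR adjusted p = 0.000352). The rise of Bid was smaller in tolerized cells by 0.45 (difference −0.45, SE 0.14, edgeR adjusted p = 0.0203), from the higher resting level. The first 3 calls held in all 12 fits that left out a library and in all 7 other fits, the marker scores included. That of Bid was lost with the marker scores (edgeR adjusted p = 0.0821) and without N0 replicate 2 (0.0684), NAg replicate 2 (0.0507) or T0 replicate 3 (0.0593). The differences for Bcl2 (0.55, SE 0.26), Bbc3 (−0.64, SE 0.29) and Pmaip1 (−0.65, SE 0.32) were not called, with edgeR adjusted p-values of 0.158, 0.13 and 0.173. For Bax, Bak1 and Mcl1 the difference was between −0.13 and 0.12, with SEs of 0.10 to 0.16.

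**Figure D3:**
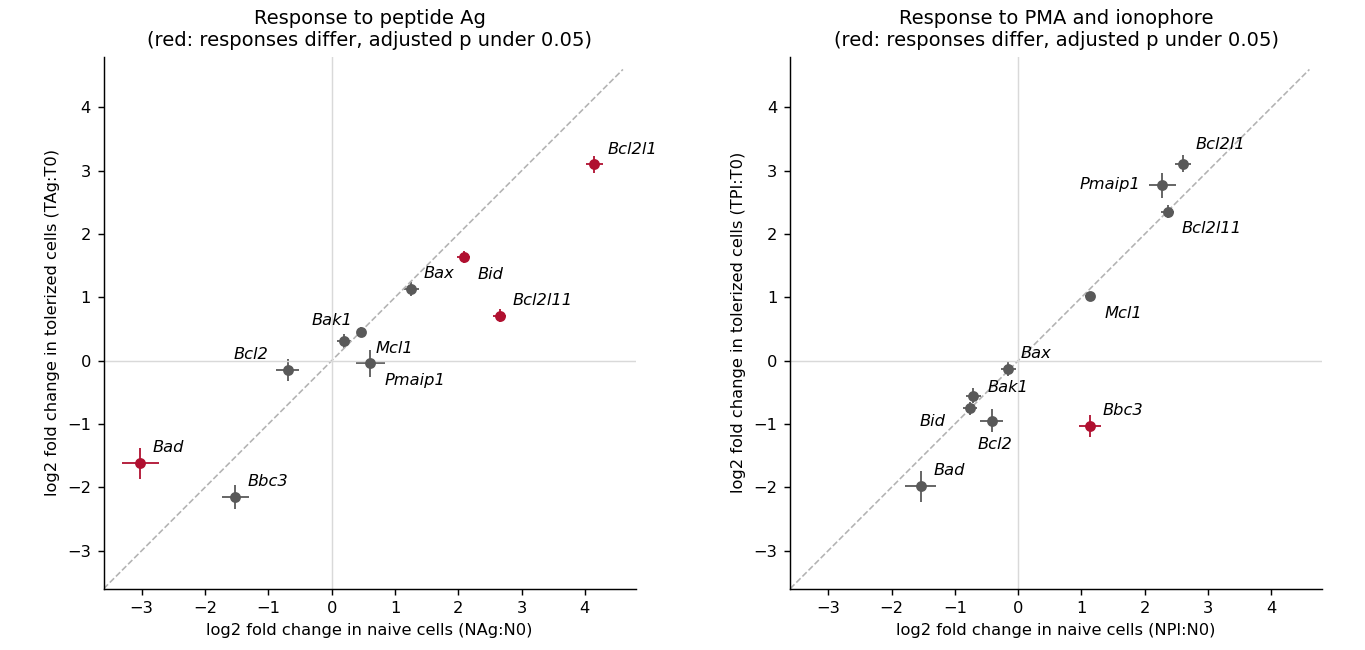
Log2 fold change in tolerized cells against that in naive cells for peptide Ag (left) and for PMA and ionophore (right), with SE bars and a dashed line of equal responses. Red marks the 4 genes on the left and the 1 gene on the right whose responses differed between the states at an adjusted p under 0.05.

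In TAg:NAg, 6 of the 10 genes were called (4 higher and 2 lower), against 39.4% of all genes (20.9% higher and 18.5% lower). The stricter limit was passed by 2, against 5.66% of all genes. Besides Bcl2l11 (above), Bcl2l1 was lower in TAg (−1.08, SE 0.12), and Bad (1.46, SE 0.32), Bbc3 (0.68, SE 0.23), Bcl2 (0.58, SE 0.18) and Bak1 (0.46, SE 0.12) were higher. Over fits that left out a library, Bcl2 was called in 2 of 6 (lost without any 1 of NAg replicates 2 and 3 and TAg replicates 1 and 2) and Bbc3 in 3 of 6 (lost without any 1 of NAg replicates 1 and 2 and TAg replicate 1). With the marker scores only the lower Bcl2l11 was called (−1.58). Here 12 of 14 neutrophil markers were called higher and 8 of 12 macrophage markers lower in TAg. The summed macrophage level was 28.1 to 38.3 CPM in TAg and 35.8, 57.7 and 184 CPM in the NAg libraries, the lowest of them within the TAg range. The part of these cells in the result was not tested beyond that fit.

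The log2 ratio of Bcl2l11 to Bcl2 counts per kb summarizes a BH3-only gene against a guardian to which BIM binds. It was −1.51 to −1.11 in N0 and −1.71 to −1.31 in T0, which overlapped. After antigen it was 1.89 to 2.34 in NAg and −0.85 to −0.27 in TAg, with all NAg libraries above 0 and all TAg libraries below. The sign in TAg depends on the gene length used: per kb of the longest annotated transcript, an alternative chosen after seeing the data, every ratio was 0.67 higher, and TAg ran from −0.18 to 0.41 with 1 of 3 libraries above 0. The position of TAg below NAg and above T0 does not depend on the length. After PMA and ionophore it was 1.45 to 1.54 in NPI and 1.73 to 1.85 in TPI. Taken back to a linear scale, the mean log2 ratio went from 0.415 to 4.24 in naive cells and from 0.358 to 0.649 in tolerized cells with antigen, and to 2.84 and 3.48 with PMA and ionophore. The ratio of Bcl2l1 to Bcl2 went from 0.159 to 4.501 in naive cells and from 0.152 to 1.44 in tolerized cells with antigen. Its values also depend on the length. Per kb of the longest transcript it went from 0.312 to 8.815 in naive cells and from 0.298 to 2.82 in tolerized cells.

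**Figure D4:**
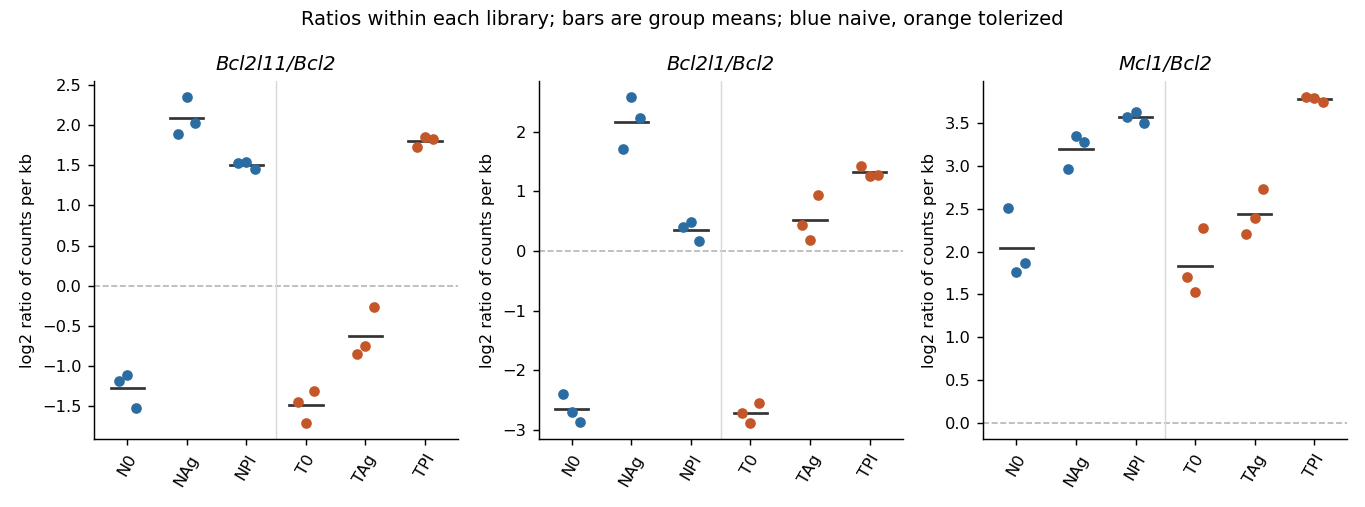
Log2 ratio of normalized counts per kb within each library for Bcl2l11, Bcl2l1 and Mcl1 against Bcl2, with bars for group means and a dashed line at equal levels. Lengths are those of all exons joined, and only with these do all TAg libraries of Bcl2l11 to Bcl2 lie below the line, at −0.85 to −0.27.

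PMA and ionophore bypass the TCR and its proximal signals. In culture with them, 8 of the 10 genes changed in naive cells and 9 in tolerized cells, against 61.4% and 68.3% of all genes. In NPI:N0, 5 were higher and 3 lower, against 28.6% and 32.7% of all genes, and 6 passed the stricter limit, against 20.3%. In TPI:T0, 4 were higher and 5 lower, against 32% and 36.3%, and 6 passed the stricter limit, against 27.1%. Bcl2l1, Bcl2l11, Mcl1 and Pmaip1 rose in both states, Bak1, Bad and Bid fell in both, and Bbc3 moved in opposite directions. The median over the 10 genes was 0.49 in NPI:N0 and −0.34 in TPI:T0, against −0.06 and −0.10 over all genes.

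Bcl2l11 had 7400, 7420 and 7631 normalized counts in NPI and 6329, 6391 and 6785 in TPI. Its rises in both states were 2.36 (SE 0.11 in both), and the difference between them was 0.00 (SE 0.15). The corresponding difference for antigen was −1.94 (SE 0.15), and the gap between the differences for the stimuli was not tested. Bcl2l1 had 1782, 1991 and 2164 normalized counts in NPI and 2584, 2652 and 3020 in TPI, all above the NPI libraries. It rose by 2.603 (SE 0.13) in naive and by 3.11 (SE 0.13) in tolerized cells, and the difference of 0.51 (SE 0.18) missed the threshold (edgeR adjusted p = 0.0578).

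Pmaip1 had 438, 517 and 530 normalized counts in NPI and 1176, 1203 and 1264 in TPI. It rose 4.84-fold in naive cells (2.28, SE 0.22) and 6.82-fold in tolerized cells (2.77, SE 0.20), and TPI was 2.45-fold above NPI (1.29, SE 0.19, edgeR adjusted p = 4.53e-05). With the marker scores the difference in TPI:NPI was 0.80 (SE 0.44, edgeR adjusted p = 0.307) and was not called. With antigen it had the smallest log2 fold changes of the BH3-only genes. Mcl1 rose to between 13280 and 14100 normalized counts in NPI (1.13, SE 0.08) and to between 10510 and 11560 in TPI (1.01, SE 0.08).

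Bbc3 had 178, 180 and 197 normalized counts in NPI, all above the N0 libraries, and 73.5, 112 and 122 in TPI, all below the T0 libraries. It rose in naive cells (1.13, SE 0.18, edgeR adjusted p = 4.4e-06) and fell in tolerized cells (−1.03, SE 0.17, edgeR adjusted p = 7.83e-06). The difference of −2.17 (SE 0.24, edgeR adjusted p = 8.21e-07) was the only one called among the 10 genes, against 20.2% of all genes (12.7% higher and 7.52% lower). It also passed the stricter limit, as 3.21% of all genes did, and was called in all 12 left-out and 7 other fits. With the marker scores it was −1.41 (edgeR adjusted p = 0.0455), and the value for TPI:T0 was then 0.07 (SE 0.55). The summed neutrophil level went from 166 to 276 CPM in T0 to 37.5 to 62.7 CPM in TPI, and its part in this result was not tested beyond that fit. The difference of responses also holds NPI:N0, where Y-linked reads were at most 15 in N0 and at least 5599 in NPI. The fit with the Y-linked score rests mainly on T0 and TAg, the groups with both kinds of library. The part of sex in this result was not tested beyond that fit.

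Bcl2 fell in TPI to 1620, 1689 and 1710 normalized counts (−0.95, SE 0.18, edgeR adjusted p = 0.000356), below every library of the other groups. Its level in NPI was 2302 to 2419 (NPI:N0 −0.42, SE 0.18, edgeR adjusted p = 0.0607). Bad (−1.54 in naive and −1.98 in tolerized cells), Bak1 (−0.71 and −0.56) and Bid (−0.76 and −0.75) fell in both states. Bax was called in neither, at −0.16 and −0.12. With the marker scores the 3 calls held in NPI:N0 and were lost in TPI:T0 (Bad −1.83, edgeR adjusted p = 0.113; Bak1 −0.67, edgeR adjusted p = 0.218; Bid −0.65, edgeR adjusted p = 0.162). In TPI:T0, 11 of 14 neutrophil markers were called lower, and their part in these falls was not tested beyond that fit.

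In TPI:NPI, 7 of the 10 genes were called (4 higher and 3 lower), against 37.9% of all genes (18.2% higher and 19.7% lower). Of these, 1 passed the stricter limit, against 5.6% of all genes. Beside Pmaip1, Bak1 (0.50, SE 0.12), Bcl2l1 (0.48, SE 0.12) and Bid (0.44, SE 0.11) were higher, and Bbc3 (−0.86, SE 0.17), Bcl2 (−0.50, SE 0.18) and Mcl1 (−0.28, SE 0.07) lower. The call of Bcl2 (edgeR adjusted p = 0.0457) was lost in all 6 fits that left out a library. With the marker scores only Bcl2l1 (0.94, edgeR adjusted p = 0.0267) and Bbc3 (−1.53, edgeR adjusted p = 0.0162) were called. Here 10 of 14 neutrophil markers were called higher, and their part in the result was not tested beyond that fit.

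**Figure D5:**
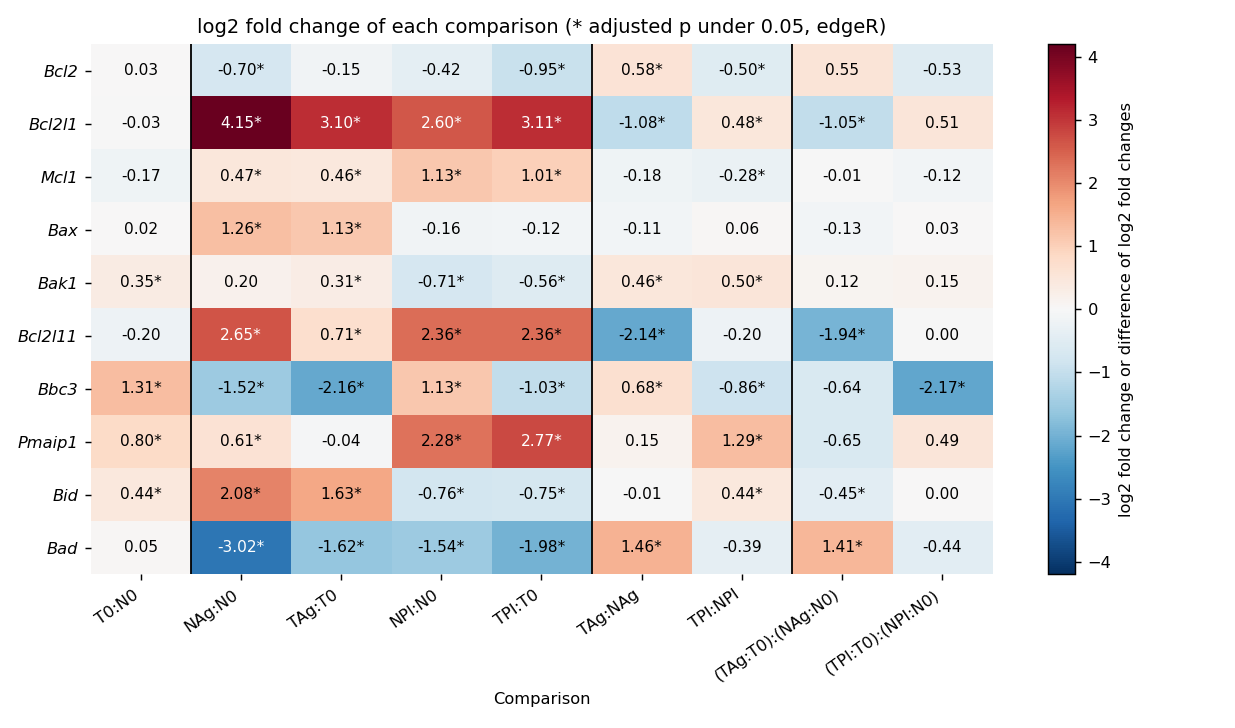
Log2 fold change of the 10 genes (rows) in 7 comparisons and of 2 differences between responses (columns), red for higher and blue for lower, with an asterisk at an adjusted p under 0.05. Bcl2l1 rises in all 4 responses, Bad falls in all 4, and Bbc3 is red in NPI:N0 and blue in TPI:T0.

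Exons of Bad, Bid, Bcl2 and Bak1 overlap genes on the other strand, by 517 of 2007 bp (Gpr137), 628 of 3550 bp (Bcl2l13), 558 of 7191 bp (D630008O14Rik) and 357 of 2407 bp (Ggnbp1). Whether the counting used the strand is not given in the sources used here, so reads from these pairs may be mixed. The lowest level of any of the 10 genes was that of Bad in NAg.

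Of 13 other BCL2 family genes, 10 were tested, and Hrk, Bok and Bcl2l10 were too low. The list was called for 3 genes higher and 3 lower in NAg:N0, 3 and 4 in TAg:T0, 3 and 2 in NPI:N0, and 4 and 4 in TPI:T0. Its median was −0.69, −0.37, −0.08 and −0.02 in these comparisons. In T0:N0, 2 were higher. Of all genes, 32.1% were called higher and 33.4% lower in NAg:N0, and 29.9% and 29.8% in TAg:T0. The shares were 28.6% and 32.7% in NPI:N0, 32% and 36.3% in TPI:T0, and 8.42% and 12% in T0:N0. They apply to the lists below as well. Bcl2a1d, a BFL1 guardian gene, rose from 20.01 to 434 mean normalized counts in naive cells with antigen (4.42) and from 31.8 to 127 in tolerized cells (1.995), and its response was 2.43 lower in tolerized cells (difference −2.43). For Bcl2a1b the difference was −1.80, though reads of the Bcl2a1 copies, which are nearly identical, cannot be told apart with certainty. Exons of Bcl2a1b also overlap Mthfs on the same strand, by 401 of 817 bp. For Bcl2a1a, at a mean normalized count of 2.09 in T0 and 14.1 in TAg, the difference was 0.47 (SE 0.80, edgeR adjusted p = 0.751) and was not called. Bmf, the BH3-only gene for a protein tethered to the cytoskeleton, fell in all 4 responses (−2.45 in NAg:N0, −3.18 in TAg:T0, −1.63 in NPI:N0 and −1.72 in TPI:T0). Bcl2l2 (BCL-W) was higher in T0 than in N0 (0.81).

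Of 17 genes acting at and after the mitochondrion, 8 rose and 6 fell in NAg:N0, 8 and 3 in TAg:T0, 5 and 7 in NPI:N0, and 6 and 10 in TPI:T0. The medians were −0.07, 0.18, −0.26 and −0.54. Cycs, the gene of cytochrome c, rose by 1.96 and 1.75 with antigen and by 0.77 and 1.15 with PMA and ionophore, in naive and tolerized cells. Apaf1, the scaffold of the apoptosome, rose by 1.21 in naive and 0.40 in tolerized cells with antigen (difference −0.81). Casp9, its protease, fell in all 4 responses, from 217 to 34.7 mean normalized counts in NAg and from 219 to 62.2 in TAg. Casp6 rose in naive cells (1.35) and fell in tolerized cells (−0.61) with antigen (difference −1.95). Birc3, an inhibitor of apoptosis, rose by 2.06 and 1.36 with antigen and by 2.07 and 2.63 with PMA and ionophore.

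All 11 death receptor genes were called in each of the 4 responses, 7 to 8 of them higher. Of all genes, 65.5% were called in NAg:N0, 59.8% in TAg:T0, 61.4% in NPI:N0 and 68.3% in TPI:T0. The medians of the 11 genes were 1.01 in NAg:N0, 0.86 in TAg:T0, 0.68 in NPI:N0 and 1.37 in TPI:T0. In T0:N0, 4 of the 11 were lower, against 12% of all genes. Fasl, the ligand of FAS, rose by 2.37 in naive and 0.86 in tolerized cells with antigen (difference −1.51) and by 2.06 and 3.07 with PMA and ionophore (difference 1.004). Fas rose in all 4. Cflar, which blocks caspase 8, rose from 3619 to 4781 mean normalized counts in NPI and from 2756 to 11280 in TPI (difference 1.63).

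Among 11 genes of p53 and its targets found of 12 listed, 5 were called higher and 5 lower in NAg:N0, and 4 and 5 in TAg:T0, with medians of −0.15 and −0.31. With PMA and ionophore, 5 were higher and 4 lower in NPI:N0 and 6 and 4 in TPI:T0, with medians of −0.20 and 0.64, and 2 were higher in T0:N0. Cdkn1a, a cell cycle inhibitor, rose by 6.15 in naive and 3.13 in tolerized cells with antigen (difference −3.02). Perp, which encodes a desmosomal protein induced by p53, had 17.97 mean normalized counts in NAg and 159 in TAg (3.15), and 29.6 in NPI and 226 in TPI (2.93). Trp53 itself rose by 0.32 and 0.81 with antigen.

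Of 16 regulators of BCL2 family proteins and genes, 10 rose and 5 fell in NAg:N0, 9 and 4 in TAg:T0, 13 and 1 in NPI:N0, and 12 and 2 in TPI:T0. The medians were 0.38, 0.39, 0.68 and 0.79, and in T0:N0 2 were higher and 3 lower. Foxo1, a transcription factor gene of resting T cells, fell with antigen in naive (−0.92) and tolerized cells (−1.74, difference −0.82) and rose with PMA and ionophore by 0.55 and 0.61. Il7r, the receptor gene of the survival cytokine IL-7, was higher in T0 than N0 (0.51) and fell in all 4 responses. Pim1, whose kinase phosphorylates BAD, rose by 3.81 in naive and 2.58 in tolerized cells with antigen (difference −1.23).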

How the data were processed

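RNA-seq was performed on 18 libraries of splenic CD4+ T cells after depletion of ribosomal RNA. Per the methods of the study and the labels, the authors aligned paired-end reads to mm9 (NCBIM37) with TopHat 2.1.1 and counted them per Ensembl gene with HTSeq 0.9.1. The deposited values are raw counts, neither normalized nor pooled. Strand and overlap settings of the counting are not given in the sources used here. Genes were named from an NCBIM37 annotation, with 37205 of 37991 matched. Here, counts were scaled by TMM and tested with edgeR 4.0.16 (R 4.3.3), in 1 quasi-likelihood model of 6 groups, over 17240 genes with a mean normalized count of at least 3 in a group, with Benjamini-Hochberg adjustment. A difference between the responses of both states is an interaction contrast. DESeq2 1.42.0, its size factors, no filter, only the groups compared, the replicate number as a block, marker and Y-linked scores, a stricter call and left-out libraries were tried. The precision rests on 3 libraries per group and on total counts of 10758571 to 24119489. No libraries of a group agreed within sampling noise. Genes are named if they are members, belong to the listed pathways, or are the 2 genes most like a member. The members and lists were chosen with earlier results of these data known. Promoter windows are from RefSeq (GRCm38.p6), and the window of Pmaip1 is not used here. Scripts were tested on simulated data. Chromatin data were not analysed here.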

Additional observations from a re-analysis of the deposited data

Results flagged for a closer look

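The response to the same stimulus differed between naive and tolerized cells for 5 gene and stimulus pairs, by the interaction test of edgeR with Benjamini-Hochberg adjustment over all genes. With antigen, the tolerized minus naive difference of log2 fold changes was −1.94 for Bcl2l11 (edgeR adjusted p = 6.27e-09), −1.05 for Bcl2l1 (edgeR adjusted p = 0.000352), 1.41 for Bad (edgeR adjusted p = 0.0112) and −0.45 for Bid (edgeR adjusted p = 0.0203). With PMA and ionophore it was −2.17 for Bbc3 (edgeR adjusted p = 8.21e-07). All 3 NPI libraries of Bbc3 were above all N0 libraries, and all 3 TPI libraries were below all T0 libraries. With the marker scores as covariates the Bbc3 difference was −1.41 (edgeR adjusted p = 0.0455). Its value for TPI:T0 was then 0.07 (edgeR adjusted p = 0.949). The call of Bid was lost with the marker scores (edgeR adjusted p = 0.0821) and held in 9 of 12 fits that left out a library. In naive cells, sex and PMA and ionophore cannot be told apart. Bad rests on 6.60 to 36.3 normalized counts per library after antigen.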

How the results depend on the processing

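Of 90 gene comparisons, 56 were called, and 34 of these calls held in every alternative fit and every left-out fit. DESeq2 lost none and gained 3, DESeq2's size factors lost 1 and gained 1, no filter lost 2, only the groups compared lost 4 and gained 3, and the Y-linked score lost 3. Marker scores as covariates lost 21 and gained 1, with a median SE of 0.28 against 0.14. With them, the sign turned for Bbc3 in T0:N0 (−0.12), TAg:NAg (−0.45) and TPI:T0 (0.068), for Pmaip1 in T0:N0 (−0.032) and for Bcl2 in TPI:NPI (0.19), none of them called. The cause was not tested.

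The number of the 10 genes called in T0:N0 was 4, and 1 by the stricter limit, 0 with marker scores (edgeR, and 0 at an unadjusted p under 0.05; DESeq2 called 4 without them) and 2 with the Y-linked score. By the stricter limit it was 5 in TAg:T0, 2 in TAg:NAg and 1 in TPI:NPI. With marker scores it was 1 in TAg:NAg, 5 in TPI:T0 and 2 in TPI:NPI. For the difference of responses to PMA and ionophore it was 2 with DESeq2 and with only the groups compared, where Bcl2l1 was added. With each library left out it ranged from 2 to 5 in T0:N0 and from 1 to 2 in that difference. In TAg, 6 of 10 ranks per kb were kept with the longest transcript as length. With that length, chosen for the ratio after seeing the data, the mean log2 ratio of Bcl2l11 to Bcl2 was −0.60 in N0, −0.81 in T0, 2.76 in NAg, 0.049 in TAg, 2.18 in NPI and 2.47 in TPI.

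Equal replicate numbers did not pair the libraries: deviations of libraries with the same number had correlations of −0.20 to 0.11, and 2 of 18 libraries correlated best with their own number. With the replicate number as a block, 4, 9, 8, 6, 8, 9 and 6 genes were called in T0:N0, NAg:N0, TAg:T0, TAg:NAg, NPI:N0, TPI:T0 and TPI:NPI, and 4 and 1 for the differences of responses to antigen and to PMA and ionophore. The one call lost was Bcl2 in TPI:NPI.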

Other observations

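Across the 18 libraries, the genes whose log2 levels were most like those of a member were Dlst and Dnajc21 for Bcl2l1 (r = 0.993 for both), Crem (r = 0.980) and Fgfrl1 (r = 0.974) for Bcl2l11, Tfdp1 for Bid (r = 0.994), Naglu for Bad (r = 0.986), Smarce1 for Mcl1 (r = 0.986), Top1mt for Bax (r = 0.987), Daglb for Bak1 (r = 0.940), Hmgb2 for Bbc3 (r = 0.948), Fam43a for Pmaip1 (r = 0.981) and Elmo2 for Bcl2 (r = 0.916). Among the members, Bax and Bid had the highest correlation (r = 0.953) and Bcl2l1 and Bad the lowest (r = −0.944). These values describe 6 groups of 3 libraries that share their treatments.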
